A study of Mus musculus with 4 samples.

Results

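The 2 wildtype libraries of a mouse RNA-seq study of 4 libraries are described here. They are the group against which the study sets B cells that overexpress Arid5b, a transcriptional regulator that binds AT-rich DNA. They were chosen by their genotype label, which is misspelled for wildtype library 2 and was read as wildtype. Cells positive for B220, a B lineage form of the surface phosphatase CD45 encoded by Ptprc, were sorted by flow cytometry from the marrow of tibiae and femurs, and each library was built from 1 ug of total RNA. The age, strain and sex of the mice, and whether a library came from a single animal, are not given in the sources used here. The 2 libraries form 1 group, so every value below is a level with its spread over these libraries (SD, n = 2), which may hold technical as well as biological differences, and no test was made.

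B cells grow in the marrow from pro-B cells, which rearrange the heavy chain gene with the Rag recombinase and Dntt, through pre-B cells, which carry a receptor with the surrogate light chains Igll1 and Vpreb1 and depend on the interleukin-7 receptor. Immature B cells then leave for the spleen, and mature B cells that have taken up the receptors Cr2 and Fcer2a return to the marrow from the blood. B220 is on the surface of all these stages and also of plasmacytoid dendritic cells. Mature B cells present antigen on MHC class II molecules, whose alpha and beta chains are loaded with the help of the invariant chain Cd74 and the H2-DM proteins under the control of the coactivator Ciita.

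Reads were recovered exactly from the deposited log2 values, and they came to 20146878 in wildtype library 1 and 14196665 in wildtype library 2. The precursor of ribosomal RNA, Rn45s, took 30.2% and 25.7% of them. In this text CPM are reads scaled to 1000000 reads of the library, and TPM are reads per kilobase of exon scaled to the same sum over 22624 genes with a known exon length, Rn45s not included; levels of different genes are compared as TPM only. Of 24411 genes, 11017 (45.1%) had at least 1 CPM in both libraries and are called present, 10393 of them protein-coding. At the other end, 7945 genes had no read in either library, and 9819 had at most 3 reads in each. A count of 0 allows up to 3 reads, which is 0.149 CPM in wildtype library 1 and 0.211 CPM in wildtype library 2, for counting error alone.

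The MHC class II genes were the leading B cell group of both libraries, and their promoters are shown for that reason. All 11 members of the MHC class II list were present, and their summed level was 64133 ± 604 TPM (SD, n = 2), or 6.41% of the total. The promoters of this family are known for a short shared block just upstream of the start, which includes an inverted CCAAT sequence (the Y box) bound by the factor NF-Y. RefSeq promoters (GRCm38.p6) were given for 8 of the 11 genes, and none for Cd74, H2-Ab1 or Ciita. The letters CCAAT were searched on both strands (ATTGG is the reverse strand form) in the 150 bases before the start, and 7 of the 8 genes held them. Counted the same way, by gene with a match in any of its windows, the share was 27.7% of 27025 genes. In the 4 windows below the match is in capitals, the sequences run 5′ to 3′ on the strand of the gene, and each ends at the base before the start.
H2-Aa, chr17:34287824-34287973, minus strand: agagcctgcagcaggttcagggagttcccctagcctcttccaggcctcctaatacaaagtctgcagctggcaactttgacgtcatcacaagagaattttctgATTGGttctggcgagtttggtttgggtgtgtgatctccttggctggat
H2-Eb1, chr17:34305717-34305866, plus strand: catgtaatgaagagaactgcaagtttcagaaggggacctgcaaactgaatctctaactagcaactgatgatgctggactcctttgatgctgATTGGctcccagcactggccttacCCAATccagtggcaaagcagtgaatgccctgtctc
H2-Oa, chr17:34092229-34092378, plus strand: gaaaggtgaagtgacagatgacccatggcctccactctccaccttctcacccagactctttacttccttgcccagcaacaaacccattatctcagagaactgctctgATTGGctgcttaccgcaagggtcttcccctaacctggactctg
H2-Ob, chr17:34238755-34238904, plus strand: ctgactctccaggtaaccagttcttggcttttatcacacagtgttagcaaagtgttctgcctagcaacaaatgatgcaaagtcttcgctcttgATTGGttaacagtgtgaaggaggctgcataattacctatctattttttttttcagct
The match began 48 bases before the start in H2-Aa, 43 in H2-Oa and 57 in H2-Ob. In the genes with a match that are not printed it began farther away, at 61 bases in H2-DMb1, 90 in H2-DMb2 and 100 in H2-Eb2. H2-Eb1 held 2 matches, an inverted one at 59 bases and a forward one at 35 bases. H2-DMa was the gene without a match in 150 bases, and it had a match in the full window of 300 bases. A match is a description of these letters and not evidence of binding. The share was as high in the list of mitotic genes, with 16 of 18, which were low in these libraries.

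By level the class II genes fell into a steep order. Cd74, the invariant chain, stood at 36181 TPM in wildtype library 1 and 36761 TPM in wildtype library 2, above every other gene with a known length. H2-Aa, the alpha chain of the I-A molecule, followed at 12203 and 11002 TPM, and its beta chain H2-Ab1 at 9444 and 9006 TPM. The beta chain of I-E, H2-Eb1, was lower, at 3116 and 3235 TPM. Each of these 4 genes differed between the libraries by less than the steps between the genes, so the order Cd74, H2-Aa, H2-Ab1, H2-Eb1 was the same in both.

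The genes that load or edit the class II molecules lay below the chains. The H2-DM proteins exchange peptides on class II, and their genes H2-DMb2 and H2-DMa stood at 1273 ± 3.44 and 918 ± 0.121 TPM (SD, n = 2). The H2-O proteins restrain that exchange, and H2-Oa had 379 and 360 TPM and H2-Ob 308 and 370 TPM. Ciita, the coactivator without which the family is not transcribed, was the second lowest member at 99.7 and 121 TPM, above H2-Eb2 at 92.4 and 106 TPM. The largest difference between the libraries in the family was that of Ciita, 1.25-fold higher in wildtype library 2.

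Among the 20 genes with the highest mean TPM, 11 encoded ribosomal proteins, 3 were MHC class II genes and 1 was a part of the B cell receptor. Malat1, a long nuclear RNA, had 34364 ± 713 TPM (SD, n = 2), close below Cd74. B2m, the light chain of MHC class I, had 19592 ± 1760 TPM. Eef1a1, which brings aminoacyl-tRNA to the ribosome, had 11365 ± 257 TPM, and its values lay within the range of those of H2-Aa. The ribosomal protein genes in the 20 were led by Rps3a1 at 8176 ± 362 TPM, Rps4x at 7888 ± 139 TPM and Rpl4 at 6365 ± 144 TPM, and Rpl32, Rps23, Rplp1, Rps29, Rps15, Rpl17 and Rpl36 lay between 3984 and 5391 TPM. The actin gene Actb had 5606 ± 63.1 TPM and the chaperone Hsp90ab1 5381 ± 958 TPM, the most variable of the 20 in relative terms.

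Cd79a, the signalling chain of the B cell receptor, was 14th at 5239 ± 169 TPM (SD, n = 2). Of the 19 neighbouring pairs in this order of 20 genes, 9 overlapped between the libraries, so the places of those neighbours are not separated. The 20 genes together held 19.8% of the TPM in wildtype library 1 and 19.97% in wildtype library 2. Ribosomal protein genes as a class held 16.8% in wildtype library 1 and 16.4% in wildtype library 2, with 78 of 84 present. With the longest transcript in place of all exons as the length, 15 of the 20 remained, and Cd79a was among the 5 that left.

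By the deposited value itself, which rises with gene length, the leading 10 genes were Rn45s (23.40 ± 0.188, SD, n = 2), Malat1, Cd74, H2-Aa, Eef1a1, H2-Ab1, Mir6236, Lars2, B2m and Ahnak (16.81 ± 0.0267). Mir6236 and Lars2 are known to draw reads of ribosomal RNA origin, and with Rn45s these 3 genes were the ones of the 10 that were higher in wildtype library 1 by more than 0.25 log2 units. The log2 ratios of library 2 to library 1 were -0.27 for Rn45s, -0.32 for Mir6236 and -0.50 for Lars2.

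The label of B lineage cells held in both libraries. All 16 members of a list of B lineage surface and receptor genes were present, at a median of 795 TPM. Cd79a had 25283 reads in wildtype library 1 and 19746 in wildtype library 2, and its partner Cd79b had 3463 and 2339. Ptprc, the gene of B220, had 35704 and 27790 reads, though gene counts do not tell the B220 form from the other forms of CD45. The tetraspanins Cd53 and Cd37 stood at 2400 ± 77.7 and 1272 ± 73.8 TPM (SD, n = 2), and Fcmr, the receptor for IgM, at 1535 ± 239 TPM. No member of the list differed by 2-fold or more between the libraries. Genes of immunoglobulin constant and variable segments were not among the symbols used here, so heavy and light chain RNA was not analysed here.

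By stage, the markers of mature B cells were high, and the 7 defining genes of pro-B and pre-B cells were below 10 TPM. All 22 members of the mature B cell list were present, against 10 of the 22 members of the pro-B and pre-B list, and the summed levels were 9242 ± 688 and 222 ± 0.485 TPM (SD, n = 2). In bulk RNA, fewer cells of a stage and less RNA per cell cannot be told apart. The plot of stage-defining genes shows this break within the sorted cells.

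**Figure D1:**
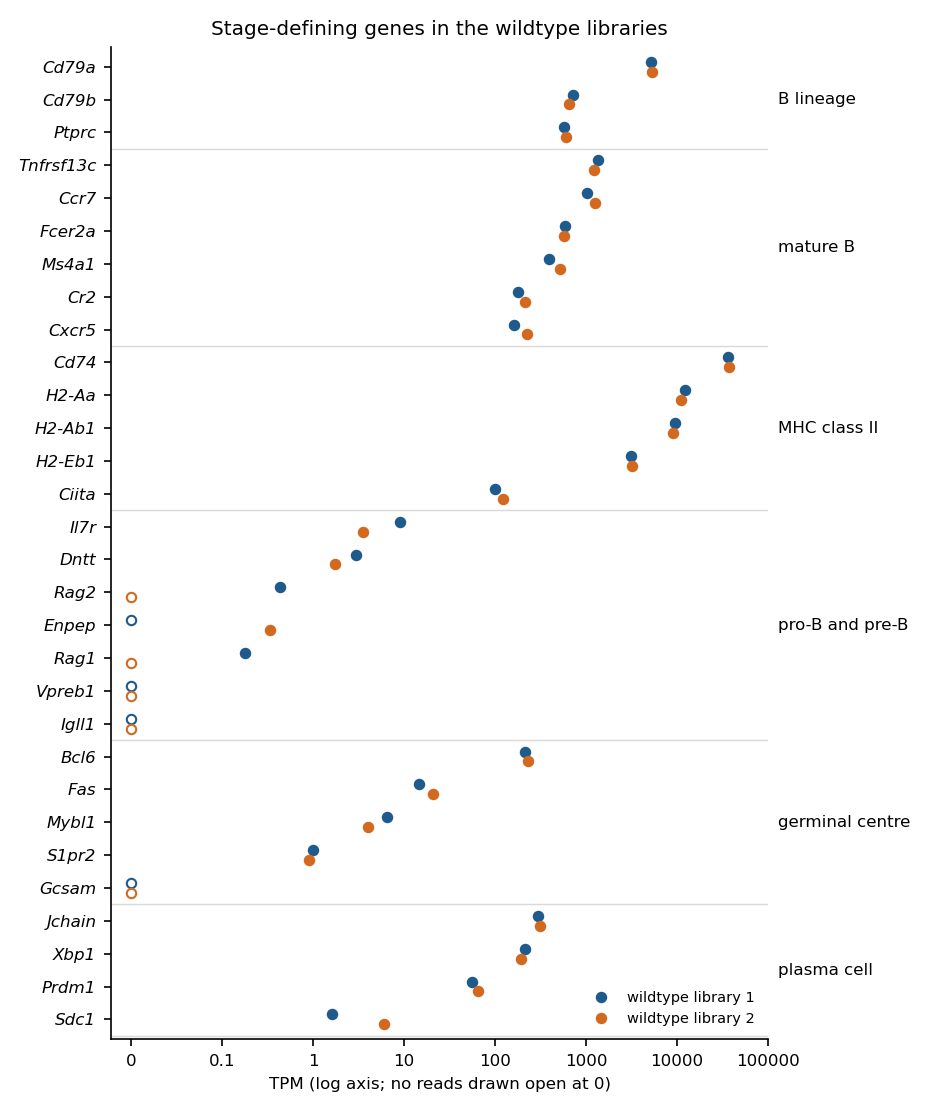
Level in TPM (log axis, genes without reads drawn open at 0) of stage-defining genes in wildtype library 1 and wildtype library 2, 1 point per library, grouped by list. The mature B cell and MHC class II genes sit at 99.7 TPM or higher in both libraries, while the 7 pro-B and pre-B genes sit below 10 TPM, and Vpreb1 and Igll1 have no reads.

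Each defining gene of mature B cells had at least 1840 reads in both libraries. Tnfrsf13c, the receptor for the survival factor BAFF, had 1348 and 1221 TPM. Ccr7, which guides lymphocytes to the T cell zone, had 1026 and 1238 TPM, and Cxcr5, which guides B cells to follicles, had 163 and 224 TPM. Fcer2a, the low-affinity IgE receptor CD23 of follicular B cells, had 584 and 573 TPM (6116 and 4483 reads). Cr2, the complement receptor CD21, had 181 and 215 TPM (4968 and 4407 reads). Ms4a1, which encodes CD20, had 394 and 518 TPM (8257 and 8108 reads). Per normalised read 17 of the 22 members were higher in wildtype library 2, with a median log2 ratio of 0.28 beside 0.01 over all 12482 genes compared. None reached 2-fold, and the widest was Gpr183, a receptor that positions B cells at the follicle edge, at 1.53-fold.

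Of the 7 genes that define pro-B and pre-B cells, 1 was present. Igll1 and Vpreb1, the surrogate light chains, had 0 reads in both libraries, as did Vpreb2 and Arpp21 of the same list. Vpreb1 and Vpreb2 are close copies of each other, and reads shared by copies may not have been counted. Rag1 had 4 and 0 reads and Rag2 5 and 0 reads, and the aminopeptidase Enpep (BP-1) had 0 and 4 reads. Dntt, which adds bases at the joints of rearranged genes, had 23 reads in wildtype library 1 and 10 in wildtype library 2, that is 2.96 and 1.73 TPM. Il7r, the defining gene that was present, had 144 and 42 reads, that is 9.11 and 3.56 TPM. Its normalised reads were 2.47-fold higher in wildtype library 1 (95% counting interval 1.74 to 3.57). Which cells the Il7r reads came from was not tested. Pro-B and pre-B cells are stages that a B220 sort of marrow can hold, so such low reads are not foretold by the label. Why they were low was not tested, and these libraries may not represent B220 sorts of marrow in general.

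The members of the early list with more reads were genes that other cells also express. Vpreb3, which binds newly made immunoglobulin chains, led with 125 and 156 TPM. Spn (CD43) had 22.8 and 14.1 TPM, Flt3 13.7 and 12.3 TPM, and Cd93, also a marker of transitional B cells, 15.9 and 9.83 TPM. Kit had 140 and 57 reads and Sox4 55 and 21 reads. Of the 14 members with enough reads to compare, 11 were higher in wildtype library 1, with a median log2 ratio of -0.62 (-0.38 as the difference of deposited values). Past 2-fold there were 2 in each direction. Il7r and Cplx2 (81 and 7 reads) were higher in wildtype library 1, beside 4.79% of all 12482 genes compared. Bst1 (11 and 17 reads) and Erg (8 and 13 reads) were higher in wildtype library 2, beside 4.61%. Bst1 and Erg lay at 10 to 30 mean reads, where 38.6% of all genes differed 2-fold or more in either direction.

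Of the genes of marginal zone and B-1 cells 15 of 16 members were present. The exception was Asb2, with 13 and 31 reads. Notch2, the receptor that drives the marginal zone fate, had 242 ± 13.6 TPM (SD, n = 2), and its target Dtx1 had 118 and 113 TPM. Cd36, a scavenger receptor, had 229 and 228 TPM. Cd9 had 176 and 132 TPM, Bhlhe41, a factor that B-1a cells need, 124 and 92.7 TPM, and Fcrl5 55.5 and 70.9 TPM. Cd5, the defining surface protein of B-1a cells, was low at 8.74 and 7.30 TPM, and S1pr3 had 57.1 and 62.6 TPM.

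Germinal centre markers were mostly low. S1pr2 had 27 and 18 reads, and Gcsam had none. Mybl1 had 6.55 and 4.03 TPM and Fas 14.5 and 20.7 TPM. The members of the list with more RNA, Gna13 at 244 ± 19.2 TPM (SD, n = 2) and Bcl6 at 221 ± 8.64 TPM, are also expressed by resting B cells. Neil1, a DNA glycosylase, came next at 20.3 TPM.

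Of the 12 plasma cell genes 11 were present, but the surface markers were low. Sdc1 (CD138) had 21 and 58 reads, and Tnfrsf17 (BCMA), a receptor of long-lived plasma cells, had 1 and 0. The regulators and secretory genes were higher: Irf4 had 998 and 1143 TPM, Mzb1 286 and 321 TPM, Jchain, which links IgM and IgA, 293 and 313 TPM, and Xbp1 211 and 191 TPM. Prdm1, the repressor that ends the B cell programme, had 55.7 and 65.6 TPM. Sdc1 was the member past 2-fold, 3.83-fold higher in wildtype library 2 (95% counting interval 2.29 to 6.65). The small list of age-associated B cell genes was present in all 7 members, led by Fcer1g at 83.4 TPM, Fcrl5 at 63.2 TPM and Zbtb32 at 10.8 TPM, with the defining factor Tbx21 (T-bet) at 8.06 and 12.2 TPM and Itgax at 11.6 and 8.40 TPM.

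All 30 genes of B cell receptor signalling were present. Among the highest were the adaptor Blnk at 447 ± 14.7 TPM (SD, n = 2) and the kinase Lyn at 428 ± 9.71 TPM. The kinase Syk had 236 and 259 TPM, the phospholipase Plcg2 220 and 234 TPM and the kinase Btk 82.1 and 78.3 TPM. The list varied little: its widest fold was 1.46, for the phosphatase Ptpn22, and its median log2 ratio was 0.13.

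Of 19 measured inhibitory receptors and their phosphatases, 17 were present. Cd274 (PD-L1) led with 669 and 700 TPM, ahead of Cd22, which dampens receptor signals, at 373 and 399 TPM and the phosphatase Ptpn6 at 259 and 303 TPM. Siglecg had 113 and 116 TPM and Cd72 104 and 111 TPM. Fcgr2b, the Fc receptor that shuts down B cells bound to immune complexes, was low at 20.4 and 27.0 TPM. Pirb, better known from myeloid cells, was 6.34-fold higher in wildtype library 1 and Lair1 2.53-fold.

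Receptors for chemokines and lipids were led by Cxcr4, which retains B lineage cells in the marrow, at 1277 and 1116 TPM, and by Ccr7. Gpr183 had 457 and 676 TPM, and S1pr1, the receptor for exit into blood, had 514 and 512 TPM. Of 22 members 19 were present, and Cxcr2, a receptor of neutrophils, had 1 read in each library. Among adhesion genes 18 of 21 were present, led by Cd44 at 899 and 815 TPM, Cd2 at 777 and 741 TPM and Slamf7 at 333 and 389 TPM, and the integrin chains Itgal and Itga4 stood at 173 and 191 TPM and at 84.4 and 83.1 TPM. Vcam1 and Jam3 of that list were at the floor.

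Receptors of the TNF family were dominated by the BAFF receptor. Behind Tnfrsf13c came Tnfrsf1b at 184 ± 10.1 TPM (SD, n = 2) and Cd40, the receptor for T cell help, at 90.8 and 86.6 TPM. Tnfrsf13b (TACI) had 17.3 and 27.6 TPM, so the 3 BAFF-binding receptors lay far apart, with Tnfrsf17 at the floor. Of 16 members 13 were present.

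Among 34 cytokine receptor genes 32 were present, and the shared gamma chain Il2rg stood above all others at 948 and 1174 TPM. Tgfbr2 had 227 ± 7.48 TPM (SD, n = 2) and Il21r 191 ± 26.1 TPM. Il4ra had 133 and 130 TPM, far above Il7r, which uses the same gamma chain.

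Toll-like receptors and their partners were present in 16 of 22 members. Cd180, a surface receptor that works with its partner Ly86, had 1258 and 1259 TPM, and Ly86 had 179 and 231 TPM. Tlr9, the sensor of unmethylated DNA, had 512 and 533 TPM, and Unc93b1, which carries it to endosomes, 255 and 314 TPM. Tlr7, the sensor of RNA, was lower at 43.2 and 59.7 TPM. Tlr5 had no reads and Tlr12 had 0 and 1.

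Of 52 transcription factors in the list 49 were present, and Klf6, Irf4 and Pou2af1 led the order by TPM. Klf6 had 1289 and 1472 TPM, Irf4 998 and 1143 TPM, and Pou2af1, the B cell coactivator of octamer sites, 971 and 1116 TPM. The values of Irf4 and Pou2af1 overlapped. Rel, the NF-kappaB subunit of mature B cells, had 596 and 778 TPM. Foxp1, Ikzf1, Klf2 and Ets1 lay together between 495 and 508 TPM on average, and their values overlapped.

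The lineage factors were steady between the libraries. Ebf1, which opens the B cell programme, had 356 and 348 TPM. Pax5, which keeps B cells committed, had 97.2 and 95.9 TPM (2915 and 2147 reads). Tcf3, which encodes E2A, had 68.4 and 67.1 TPM. Their deposited values had an SD of 0.011, 0.022 and 0.015 over the 2 libraries. Foxo1 had 464 and 378 TPM, Spib 330 and 273 TPM and Bach2, which delays plasma cell fate, 102 and 89.9 TPM.

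Some factors of other lineages had few reads. Gata1 of red cells had no reads, Gata3 of T cells had 50 and 24 reads, Bcl11b of T cells 18 and 15, and Cebpa of myeloid cells 10 and 19. Cebpa was the member past 2-fold, higher in wildtype library 2 by 2.64-fold. In the plot of transcription factors these lie below the range drawn.

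**Figure D2:**
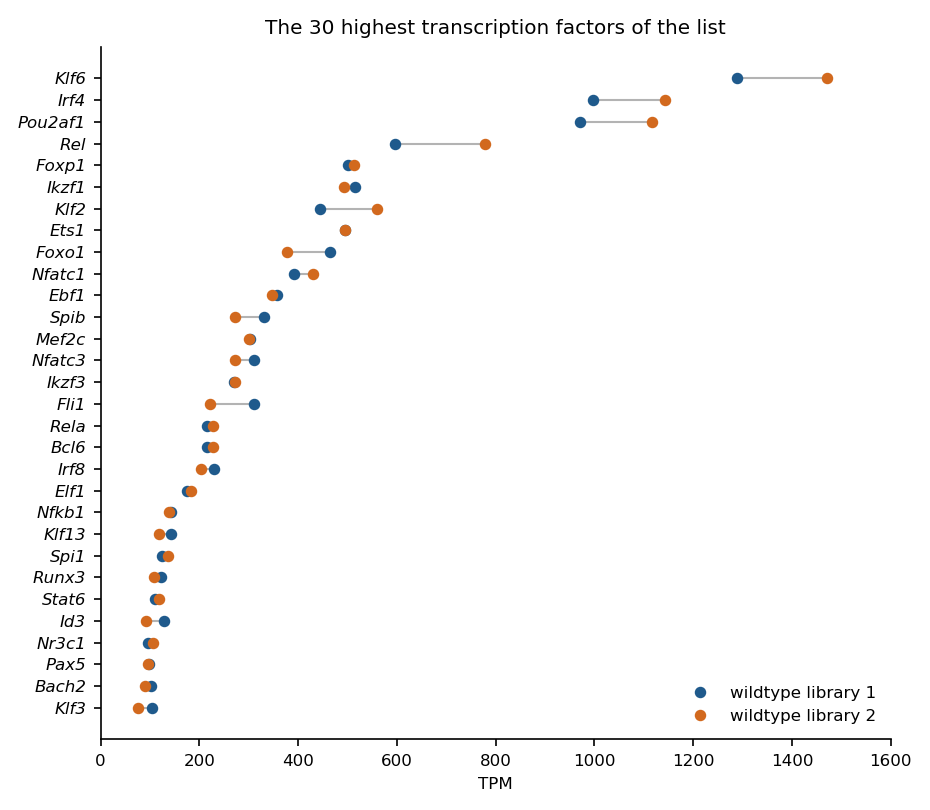
Level in TPM (linear axis) of the 30 highest members of the transcription factor list, with 1 point per wildtype library joined by a line. Klf6, Irf4 and Pou2af1 stand near or above 1000 TPM, Ebf1 is at 352 TPM and Pax5 at 96.5 TPM on average, and the 2 points of most factors lie close together.

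Arid5b itself had 2993 reads in wildtype library 1 and 2465 in wildtype library 2, that is 87.8 and 96.9 TPM. Its deposited value was 12.65 ± 0.135 (SD, n = 2). The gene (chromosome 10, 68092520 to 68278740, GRCm38) was thus close to Pax5 and Bach2 in level per length.

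For energy metabolism, the median level of the respiratory chain and ATP synthase list was higher than that of the glycolysis list. Lists with alternative forms of an enzyme, such as Hk1, Hk2 and Hk3 of glycolysis, have medians that depend on the choice of members. Of 32 members of the respiratory list 30 were present with a median of 90.4 TPM, and of 22 glycolysis genes 19 with a median of 22.2 TPM. The ATP synthase gene Atp5b had 795 and 807 TPM, Atp5a1 604 and 588 TPM, Cox6a1 529 and 497 TPM and Cox4i1 399 and 406 TPM. Cox4i2, the form induced by low oxygen, had no reads. The tricarboxylic acid cycle was present in all 22 members, led by Mdh1 at 158 ± 12.6 TPM (SD, n = 2), Idh3g at 133 ± 16.6 TPM and Sdhd at 132 ± 22.2 TPM, with Cs at 113 and 113 TPM.

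Glycolysis was uneven along the pathway. Gapdh had 696 and 687 TPM, the glucose transporter Slc2a1 340 and 306 TPM and Ldha 194 and 204 TPM, whereas hexokinase Hk2 had 11.5 and 8.94 TPM. Eno1 had 2 and 0 reads; it has close copies in the genome and its count is uncertain. The pentose phosphate pathway was present in all 7 members, between 13.4 TPM for Pgd and 62.0 TPM for Rpe, with Taldo1 at 60.2 TPM and G6pdx at 53.7 and 63.9 TPM. Fatty acid oxidation was present in 15 of 17 members, led by Acadl at 224 TPM, Hadhb at 82.1 TPM and Etfa at 60.3 TPM, and its gate Cpt1a had 39.6 and 48.0 TPM.

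Scd1, which desaturates stearate, stood apart among the genes of sterol and fatty acid synthesis. It had 1277 and 1285 TPM, while the next, Elovl5, had 227 and 218 TPM and Srebf2, the regulator of sterol genes, 127 and 109 TPM. Its sister gene Scd2 had 26.5 and 26.0 TPM. Fasn, the fatty acid synthase, had 29.6 and 26.3 TPM. All 25 members were present.

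By median level, genes of quiescence exceeded genes of division. The 20 quiescence genes were all present with a median of 132 TPM. Of 22 mitotic genes 20 were present with a median of 6.73 TPM, and of 25 replication genes 24 with a median of 13.7 TPM. These medians also depend on the choice of members. Btg1, an antiproliferative factor, had 1403 and 1344 TPM, Txnip, which limits glucose uptake, 674 and 553 TPM, and Klf2, which keeps lymphocytes resting, 445 and 559 TPM. The inhibitor Cdkn1b had 45.1 and 43.6 TPM. Cdk1, the kinase that starts mitosis, had 17 and 15 reads, that is 1.02 and 1.20 TPM. Mki67 had 33.3 and 35.6 TPM (1137 and 906 reads) and Top2a 25.8 and 21.6 TPM, so RNA of dividing cells was low but not absent. Cenpa led the mitotic list at 55.1 TPM, and Pcna led the replication list at 275 and 302 TPM, with Mcm4 at 99.2 TPM, Cdt1 at 92.9 TPM, Mcm2 at 26.3 and 34.3 TPM and Rrm2 at 14.6 and 9.99 TPM.

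In the BCL2 family Mcl1, a short-lived guard against apoptosis, led with 807 and 690 TPM. The killer proteins Pmaip1 (NOXA) and Bcl2l11 (BIM) followed at 282 and 165 TPM on average, above Bcl2 itself at 49.0 and 42.6 TPM. Bcl2l1 (BCL-XL) had 1.61 and 1.72 TPM. Of 18 members 15 were present, and the 3 Bcl2a1 genes of the list are close copies of each other, so their split is uncertain.

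Immediate early genes, which are switched on within minutes by receptor signals or by handling of cells, were abundant. Egr1 had 1180 and 1890 TPM, Zfp36, which destabilizes cytokine RNA, 985 and 1095 TPM, and Myc 661 and 1093 TPM. Jun had 532 and 612 TPM and Fos 178 and 302 TPM. Of 25 members 24 were present at a median of 240 TPM. In wildtype library 2 22 were higher, with a median log2 ratio of 0.28 beside 0.01 over all genes compared. Without the heat shock genes Hspa1a and Hspa1b, 20 of 23 were higher there, at a median of 0.25, and none reached 2-fold. The share of all genes higher in wildtype library 2 was not counted. Other lists also leaned to 1 library: 17 of 22 mature B cell genes were higher in wildtype library 2 and 11 of 14 pro-B and pre-B genes in wildtype library 1. Interferon response genes were low by comparison, with a median of 8.52 TPM. Bst2 had 84.3 and 59.5 TPM, while Irf7 had 24.6 and 30.7 TPM, Isg15 23.8 and 28.2 TPM and Ifit1 6.33 and 15.2 TPM. Of the 23 interferon genes compared, 7 were 2-fold or more higher in wildtype library 2, beside 4.61% of all genes, and none in wildtype library 1. Among the 7 were Ifit1 (57 and 102 reads), Ifit2 (70 and 145) and Ifih1 (195 and 298). The 4.61% is over all depths and is not matched to the reads of this list. In either direction, 38.6% of all genes differed 2-fold or more at 10 to 30 mean reads, 14.7% at 30 to 100 and 2.70% at 100 to 300. Ifit1 lay in the range of 30 to 100 mean reads, and Ifit2 and Ifih1 in that of 100 to 300.

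RNA of other cell types was small against that of B cells. The summed level of each marker list is drawn in the plot of other cell types. Plasmacytoid dendritic cells, which carry B220, gave the highest sum in wildtype library 1, 659 TPM, and 521 TPM in wildtype library 2, where the neutrophil and monocyte lists were higher. Most of it was Plac8 at 367 and 363 TPM, which B cells also express. Of the defining genes, Siglech had 98.5 and 37.5 TPM, Klk1 40.8 and 30.5 TPM and Ccr9 28.2 and 14.6 TPM. Cox6a2 had 14.8 and 6.40 TPM and Pacsin1 11.1 and 10.4 TPM. All 5 were detected, and 4 of them, all but Cox6a2, were present. By TPM all 5 were higher in wildtype library 1, with Pacsin1 close to equal.

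**Figure D3:**
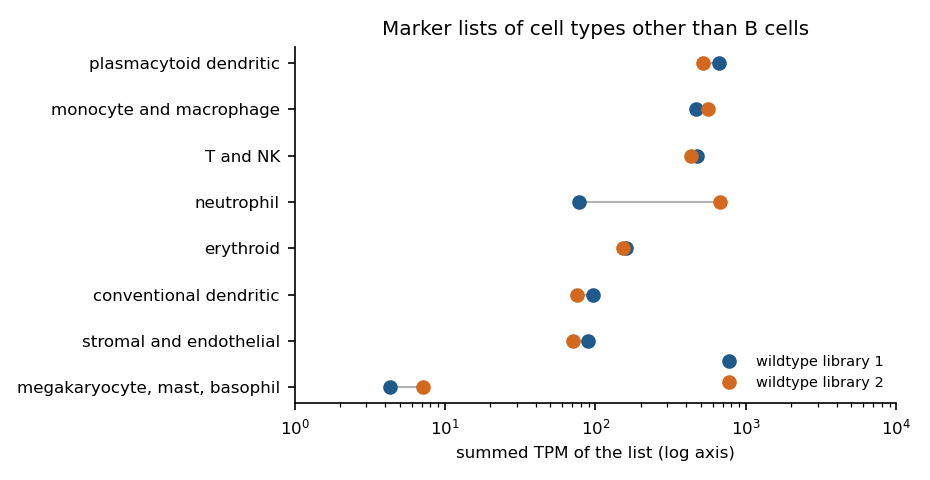
Summed TPM (log axis) of each marker list for cell types other than B cells, 1 point per wildtype library joined by a line. The neutrophil list lies at 77.5 TPM in wildtype library 1 and 673 TPM in wildtype library 2, and the 2 points of every other list lie closer together.

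T and NK cell markers summed to 476 and 434 TPM, with 19 of 24 present. Ccl5 had 146 and 104 TPM, Gzma 47.2 and 63.3 TPM and Nkg7 59.1 and 36.8 TPM. Cd3e had 407 and 267 reads, Cd3d 112 and 70, Lck 216 and 256, Cd4 147 and 96, Cd8a 44 and 12 and Ncr1 32 and 19. These lineage markers were therefore detected in both libraries, with Cd3e at 29.4 and 25.9 TPM beside 5120 and 5359 TPM of Cd79a.

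Monocyte and macrophage markers summed to 463 and 560 TPM. Most of that came from Cd68 at 161 and 155 TPM and Ms4a6c at 140 and 173 TPM. Lyz2 had 343 and 477 reads, Ccr2 150 and 46, Adgre1 74 and 69 and Csf1r 32 and 25, and C1qa had 0 and 1. Conventional dendritic cells summed to 96.6 and 75.8 TPM, led by Cd209a at 27.8 TPM, Sirpa at 18.6 TPM and Flt3, with Zbtb46 at 124 and 123 reads, Clec9a at 60 and 8 and Xcr1 at 56 and 18.

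Of 18 red cell genes 11 were at the floor and 5 were present. The 4 globin genes with an exon length, Hba-a1, Hba-a2, Hbb-bs and Hbb-bt, had no reads; globin genes are close copies and reads shared between them may not have been counted. Alas2, the haem synthesis enzyme of red cells, had 69 and 65 reads and Klf1 10 and 3. The 161 and 153 TPM of the list were mostly Tfrc and Car2, which are not limited to red cells. Platelet, mast cell and basophil genes summed to 4.30 and 7.10 TPM, with Pf4, Ppbp, Fcer1a, Mcpt8 and Cpa3 at 0 reads. Stem cell genes other than Ly6a, Slamf1, Flt3 and Kit were below 1 TPM on average, Procr at 2 and 6 reads and Cd34 at 5 and 4 among them. In the stromal and endothelial list Pecam1, which B cells share, had 75.8 TPM on average and Cdh5 48 and 26 reads, and Col1a1, Cxcl12 and Bglap had no reads.

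Among the gene lists, neutrophil genes differed most between the libraries by median log2 ratio, after the sex-linked genes. S100a9 had 86 reads in wildtype library 1 and 384 in wildtype library 2, S100a8 had 21 and 180, and Ngp had 11 and 378. Lcn2 (0 and 182 reads), Chil3 (0 and 131), Camp (0 and 94) and Ltf (0 and 90) had reads in wildtype library 2 alone. Of 19 members 12 had enough reads to be compared, and 6 of these had no reads in wildtype library 1, so they were compared only because they were high in the other library. The counts and medians over the 12 are therefore a description of them and not of the whole list. Of the 12, 10 were 2-fold or more higher in wildtype library 2, beside 4.61% of all genes, and none was in the other direction. Their median log2 ratio was 6.17, or 3.98 with the 6 genes set to their lower bound, and with no filter on reads the median of the list was 3.56. The counting intervals of Retnlg and Csf3r included equal levels, and Elane, Ctsg and Prtn3 were at the floor in both libraries. The summed level was 77.5 TPM in wildtype library 1 and 673 TPM in wildtype library 2, which is small beside the 36761 TPM of Cd74 alone.

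Across all genes most differences between the libraries were small. Among 12482 genes with a mean of at least 10 reads, 575 (4.61%) were 2-fold or more higher in wildtype library 2 and 598 (4.79%) in wildtype library 1, together 1173 (9.4%), and 259 (2.07%) differed 4-fold or more. The median absolute log2 ratio was 0.24. It fell with depth from 0.75 at 10 to 30 mean reads to 0.10 at 3000 or more, and at each depth it was above the value that counting error alone gives, 0.36 and 0.019 at these ends. The plot of spread by depth shows both curves. The share of genes past 2-fold also fell with depth, from 38.6% at 10 to 30 mean reads to 0.41% at 300 to 1000. The shares over all genes given beside lists are thus not matched to the depth of the members.

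**Figure D4:**
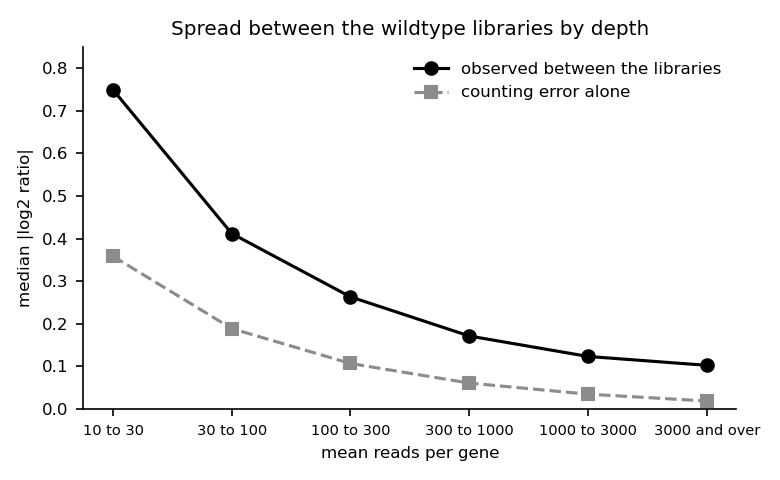
Median absolute log2 ratio between the 2 wildtype libraries (vertical axis) for genes grouped by mean reads (horizontal axis), with black circles for the observed values and grey squares for counting error alone. Both fall with depth, and the observed spread stays above counting error, 0.75 against 0.36 at the lowest depth and 0.10 against 0.019 at the highest.

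Few abundant genes differed. Of 2418 genes with a mean of at least 1000 reads, 6 differed 2-fold or more, and these were 2 sex-linked genes and 4 heat shock genes. Xist, the RNA that coats the inactive X chromosome, had 24 reads in wildtype library 1 and 77255 in wildtype library 2. Ddx3y had 3260 and 1, and the other Y-linked genes Kdm5d (1670 and 0), Uty (1357 and 0) and Eif2s3y (1080 and 0) had reads in wildtype library 1 alone. Kdm5d was at least 401-fold higher there, against a floor of 3 reads. The libraries therefore have opposite sex-linked patterns, and any other difference between them cannot be told apart from sex.

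The 4 heat shock genes were all higher in wildtype library 2. Hsph1 had 3244 and 7998 reads (3.42-fold per normalised read, 95% counting interval 3.28 to 3.56), Hspb1 652 and 1382 (2.94-fold), Hspd1 5599 and 8627 (2.14-fold) and Dnaja1 7069 and 10233 (2.01-fold). A list of 33 heat shock proteins and chaperones was drawn up after these values were seen, and 30 of its members were higher in wildtype library 2, with a median log2 ratio of 0.50 and 6 past 2-fold, beside 4.61% of all genes. Since the list was chosen on these values, its counts support nothing. Hspa1a had 161 and 682 reads and Hspa1b 39 and 338; the 2 are near-identical copies whose split is uncertain. The leading members by level were Hsp90ab1 at 4704 and 6058 TPM, Hsp90aa1 at 2060 and 2808 TPM and Hspa5 at 1498 and 2018 TPM, and none of these 3 reached 2-fold.

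**Figure D5:**
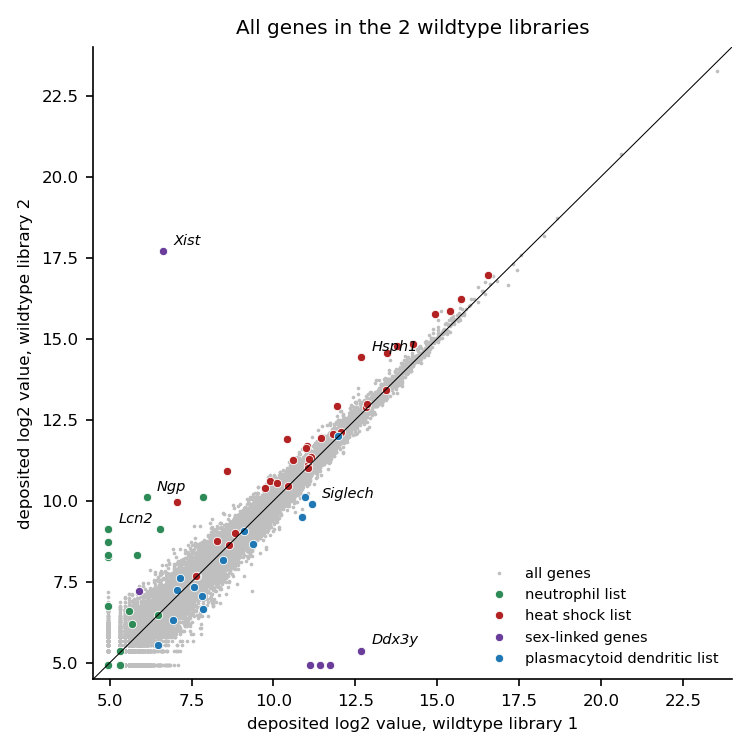
Deposited log2 value of every gene in wildtype library 1 (horizontal axis) and wildtype library 2 (vertical axis), 1 point per gene, with neutrophil, heat shock, sex-linked and plasmacytoid dendritic genes coloured and the line of equal values drawn. Most genes lie along the line, the neutrophil genes (Ngp, 11 and 378 reads) and heat shock genes (Hsph1) lie above it, and Ddx3y and Siglech lie below it.

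Plasmacytoid dendritic genes went the other way. Siglech had 1129 reads in wildtype library 1 and 321 in wildtype library 2, 2.54-fold higher in library 1 per normalised read (95% counting interval 2.24 to 2.88). Runx2 had 903 and 240 reads (2.71-fold) and Ccr9 979 and 380 (1.86-fold). Of the 14 members 6 were 2-fold or more higher in wildtype library 1, beside 4.79% of all genes, and none in wildtype library 2, with a median log2 ratio of -0.85. For Plac8, the highest member, the counting interval included equal levels. How far RNA of plasmacytoid dendritic cells or neutrophils takes part in other differences between the libraries was not tested.

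The largest folds with at least 50 normalised reads in the higher library came from these groups and from genes with few reads. Of the 12 leading genes higher in wildtype library 2, 6 were of the neutrophil list (Lcn2, Chil3, Ngp, Camp, Ltf and Mpo) and 1 was Xist. Lcn2, a neutrophil granule protein that binds iron carriers, was at least 84.2-fold higher. Htr2a, Ifi44, Fam167b and Hif3a were also among them, with 19 to 28 reads against 1 or 2. Of the 12 leading genes higher in wildtype library 1, 4 were Y-linked and the other 8 were Acsm3, Lipt1, Alox12, BC100451, Alox5, Cadm3, Rilp and Fam46d, with 27 to 43 reads against 1. Their counting intervals are wide; that of Acsm3 (43 and 1 reads) ran from 5.27-fold to 1252-fold.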

How the data were processed

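The libraries were deposited as 1 value per gene symbol, on a log2 scale with a floor of 4.949. Per the submitters' processing notes, the authors ran STAR, HTSeq and DESeq2 on the build mm10 (GRCm38); versions and settings are not given in the sources used here. The deposited log2 values have a variance stabilized form. Its inverse, times a size factor (0.502 and 0.362), gave whole reads for 100% of values within 0.01. No count model was fitted (Python 3.11.15, numpy 2.4.6, pandas 2.3.3, scipy 1.17.1).

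Exon lengths came from GENCODE M21: 23333 symbols matched by name, 644 by synonym, 364 did not match and 70 were ambiguous and have no TPM. Genes with at least 300 bases of exon entered TPM and held 98.9% and 99.0% of reads other than Rn45s. Ratios are of normalised reads, wildtype library 2 over 1, with a pseudocount of 0.5, for genes with a mean of at least 10 reads. Intervals (exact Clopper-Pearson, 95%) cover counting error only, since reads without molecular identifiers are not independent molecules. A library with 0 reads was set to 3 reads for a lower bound. On simulated reads for the real genes, drawn with counting error alone, 100% of 24411 values were decoded by inverting the formula that made them. Calls were checked only for genes with at least 100 reads expected in wildtype library 2 before any change. Among these, 100% of 4-fold and 54% of 2-fold changes were called (50 genes each), and 0% of 7490 unchanged genes were. A true 2-fold change lies at the cut itself, so a share near that 54% was set by the design. These shares do not describe genes with fewer reads. The 7490 genes are fewer than the 12482 compared between the libraries. How often an unchanged gene is called in the real libraries, whose spread was above counting error at each depth, was not tested.

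The group, 40 gene lists and the rule for named genes were chosen with earlier results of these data known, and 1 list, of heat shock genes, after its values were seen. The rule takes the 20 genes of highest mean TPM, the 10 of highest deposited value, in each list the 3 highest and the defining members (and in stage and cell type lists those with 3 reads or fewer), the 12 largest folds in each direction, the given markers and Arid5b; other genes were chosen after their values were seen. Lilrb4, Ly6g, Ahsp, Gm26917 and Mir142hg of the lists were not analysed here. Some genes that the rule names are not reported here. Alternatives were other presence levels, library totals, size factors, pseudocounts, depth filters, gene lengths and each library alone.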

Additional observations from a re-analysis of the deposited data

How the results depend on the processing

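Of 78 alternative values computed, 63 moved by less than the set limit and 15 moved. No median log2 ratio of the 9 lists recomputed changed sign, but the larger of the counts of 2-fold genes did change sides: 621 were higher in wildtype library 2 and 565 in wildtype library 1 with library totals. The median over all genes, 0.01, was -0.04 with totals without Rn45s and -0.01 with a median of ratios. At 0.5 CPM 5 neutrophil genes were present in place of 3. At 5 CPM 0 neutrophil, 6 pro-B and pre-B, 11 T and NK and 7 plasmacytoid dendritic genes were present, in place of 3, 10, 19 and 12, and all 22 mature B cell genes were. In 1 library alone the neutrophil genes present ranged from 3 to 12, the 12 being without wildtype library 1. The numbers of genes 2-fold higher in wildtype library 2 and in wildtype library 1, 575 and 598, became 146 and 174 as differences of the deposited values, which understate low genes, 2209 and 2012 with no depth filter, and 44 and 49 with a mean of at least 100 reads; under other scalings and a pseudocount of 5 they ran from 515 to 621 and from 527 to 650. The neutrophil median log2 ratio of 6.17 was 2.54 on deposited values and 3.56 with no filter, and the pro-B and pre-B median of -0.62 was -0.38 on deposited values. The heat shock median, whose alternatives were chosen after seeing the data, ran from 0.44 to 0.53. Differences between the libraries could not be recomputed with a library left out. No paired analysis was possible because 1 group is described and its replicate numbers pair with nothing. With 2 libraries of opposite sex-linked patterns, the spread over further wildtype mice is not known from these data, and at 3 reads or fewer presence was not detectable.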
